A study of Mus musculus with 20 samples.

Results

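The type 2 lactosamine chains of the printed glycan array (PGA) are the compounds whose non-reducing end is N-acetyllactosamine (LN), Galβ1-4GlcNAcβ, with nothing but a benzyl group on the outer galactose. They were chosen by a rule that reads structure and no signal, with earlier results of these data known. It takes compounds numbered below 900 whose deposited structure begins with Galβ1-4GlcNAc, with (Galβ1-4GlcNAc or with 6-Bn-Galβ1-4GlcNAc. The structure must hold no α-linked internal GlcNAc, fucose, mannose, O-sulfate or Neu5-type sialic acid. Of 419 compounds on the array, 15 met this rule. The sera came from untreated BALB/c mice of 1 inbred strain, kept specific pathogen free and bled at 10 weeks of age, 12 females and 7 males. Each serum, diluted 1:15, was incubated on 1 array, and IgG and IgM were detected together with a biotinylated goat antibody and Cy5-labelled streptavidin, so the signal does not tell the 2 classes apart. Signals are relative fluorescence units (RFU), the median of 6 spots of a compound, and 4000 RFU is the value from which the study counted a signal as positive binding.

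LN is the building block of type 2 chains on glycoproteins and glycolipids. Repeats of LN joined through β1-3 bonds form linear poly-N-acetyllactosamine, which carries the blood group i antigen, and a β1-6 branch on an inner galactose turns it into the branched I antigen. The terminal galactose is where galectins bind and where other enzymes add fucose, sialic acid, sulfate or α-galactose, so that LN is the precursor of Lewis X, of type 2 blood group H and of sialylated LN. Because these chains are common on mammalian cells, LN without a cap is a self structure for the mouse.

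The array carries the disaccharide Galβ1-4GlcNAcβ on 4 spacers, which are the amine linkers that hold a glycan on the glass: 096 on sp2 (aminoethyl), 097 on sp3 (aminopropyl), 098 on sp5 (aminopropyl lengthened by aminohexanoyl) and 099 on sp8 (an amine of hexaethylene glycol). Compound 125, 6-Bn-Galβ1-4GlcNAcβ-sp2, is the same disaccharide with a benzyl ether on the 6-hydroxyl of galactose, a group that mammalian glycans lack. Longer linear chains are 384 (the i antigen, Galβ1-4GlcNAcβ1-3Galβ1-4GlcNAcβ-sp2), its isomer 387 with a β1-6 bond (Galβ1-4GlcNAcβ1-6Galβ1-4GlcNAcβ-sp2), the hexasaccharide 498 with 3 LN units in β1-3 bonds on sp3, and 383, lacto-N-neotetraose (LNnT), a milk tetrasaccharide with glucose at its reducing end, linked through sp4 (glycyl). Compounds 489, 490 and 499 branch at the inner galactose. In 489, Galβ1-4GlcNAcβ1-3(GlcNAcβ1-6)Galβ1-4GlcNAcβ-sp2, the LN is on the 3-arm and a bare GlcNAc on the 6-arm, in 490 the arms are exchanged, and in 499, the I antigen, both arms are LN. Compounds 232, 388 and 488 on sp3 hold LN at the 6-position of α-GalNAc, the sugar that starts mucin-type O-glycans, with the 3-position free (232), carrying galactose (388) or carrying a second LN (488).

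Arrays of mice 44 and 45 held identical intensities in 2664 of 2664 spots and were counted as 1 mouse, which leaves 19 of 20 deposited arrays. No scaling between arrays was applied. Spots of printing buffer without glycan had array medians of 93.5 to 2044.5 RFU, with 577.5 RFU as the median over mice, and trehalose-ethanolamine, the negative control, stood at 238.5 RFU in the median mouse. By the ratio of 2 printed peptides the arrays part into 2 sets, which no label or header names. The higher ratio was found on 9 arrays (7 females, 2 males), which had buffer medians of 93.5 to 644 RFU, and the lower one on 10 arrays (5 females, 5 males), with 309 to 2044.5 RFU. Spots flagged as not found made up 28.8% of all spots on the median array of the first set and 10.8% in the second. For the spots of the 15 chains these medians were 50% and 13.9%. How much of each compound was bound to the glass is not given in the sources used here. A difference between compounds is therefore a difference between these printed spots, and the number of arrays limits its precision.

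Only the benzylated disaccharide was bound in most mice, and the natural LN chains were mostly at the level of the buffer spots. For compound 125 the median over 19 mice was 34851 RFU, with a median absolute deviation (MAD) of 15130.5 RFU, and 18 of them were at or above 4000 RFU. The medians of the other 14 chains lay between 169 RFU (099) and 898.5 RFU (387). They reached 4000 RFU in 5 of 266 values, against 1084 of 7961 values over all compounds. These values came from 4 chains: 387 in mice 38 and 90, 096 in mouse 38, 099 in mouse 88 and 232 in mouse 65, all of them females.

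Counted by compound, 5 of the 15 chains reached 4000 RFU in at least 1 mouse, where 54.9% of all compounds did. With 1 of 15, 125, the share with a median at or above 4000 RFU can be read against 8.11% of all compounds. In most mice 12 of the 15 did not exceed the buffer median of the array, against 42.5% of all compounds. The exceptions were 125, never at or below the buffer, 387, at or below it in 6 mice, and 096, in 8 mice. Within an array, 125 ranked above 97.6% of the other compounds in the median mouse, 387 above 57.9% and 489 above 46.2%, whereas 099 ranked above 6.82%, the lowest place in the family.

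**Figure D1:**
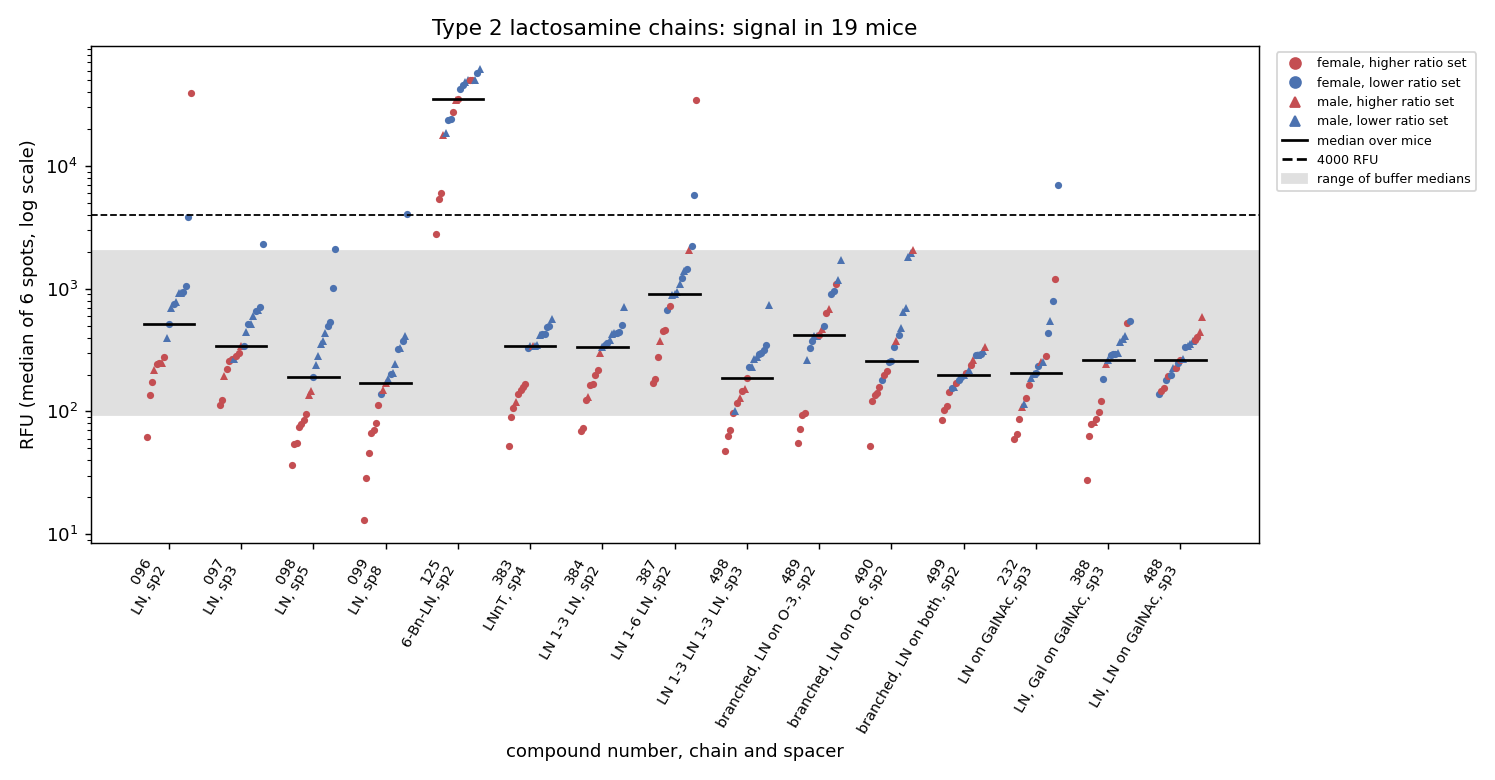
RFU of the 15 type 2 lactosamine chains in 19 mice on a log scale, 1 point per mouse (circles females, triangles males, red the array set with the higher peptide ratio, blue the other set), with the median as a bar, the 4000 RFU threshold as a dashed line and the range of buffer medians, 93.5 to 2044.5 RFU, shaded. Compound 125 stands at 2767 to 62312 RFU, while the other chains lie in or near the range of the buffer spots apart from single mice.

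The benzyl ether went with the largest difference of the family. Compound 125 ranged from 2767 RFU in mouse 17 to 62312 RFU in mouse 48, and 096, without benzyl on the same spacer, from 61.5 RFU in mouse 17 to 39293.5 RFU in mouse 38, with a median of 518 RFU ± 302 (MAD). Within mice 125 was brighter in 18 of 19, by 5.54 log2 units on average (46.6-fold, 95% interval 4.71 to 6.31, exact sign-flip permutation test, two-sided, adjusted p = 4.4e-05). The exception was mouse 38, where the ratio of 125 to 096 was 0.887. Raising all values below the buffer spots of an array to their median left a difference of 5.11 log2 units (34.6-fold). The difference was 5.61 log2 units in the set of arrays with the higher ratio and 5.48 in the other.

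The spots of 125 did not agree on some arrays, whether the median was low or high. At least 2 of the 6 spots were under 4000 RFU in 6 of 9 mice of the set with the higher ratio and in 0 of 10 of the other. In mouse 17 the 6 spots ran from 6 to 7571 RFU, and in mouse 19 from 7 to 7038 RFU around a median of 5351 RFU. In mouse 44, at 6011.5 RFU, they ran from 398 to 43381 RFU. In mouse 20 they ran from 3 to 63964 RFU around a median of 50178.5 RFU, in mouse 42 from 12 to 61165 RFU around 49981.5 RFU, and in mouse 56 from 20 to 25635 RFU around 17889 RFU. In all, 39 of the 114 spots of 125 held saturated pixels, so that the highest signals are lower bounds.

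All 52 pairs of compounds, 22 within the family and 30 with relatives outside it, were tested in the same way, on within-mouse differences of log2 RFU with a floor of 100 RFU, and p-values were adjusted over the 52. The pairs were chosen with earlier results of these data known, which the adjustment does not take into account. An adjusted p under 0.05 was reached by 15 of the 22 pairs in the family. Since many values lie below the buffer spots, each pair was also tested with such values raised to the buffer median of their array. That left 9 pairs, of which 8 were also past the threshold as measured, in the same direction. Differences between compounds that are both below the buffer are given as measured but stand on signals that the buffer spots also show. Values called above the buffer are those with the raised signals. In a mouse where both compounds were at or below the buffer, raising made their values equal. A small difference above the buffer is therefore not a measured absence of a difference.

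The 4 spacers of the LN disaccharide gave different signals. The medians were 518 RFU for sp2 (096), 340 RFU for sp3 (097), 189.5 RFU for sp5 (098) and 169 RFU for sp8 (099). The sp2 form was the brightest of the 4 in 12 mice, the sp3 form in 5, the sp5 form in mouse 65 and the sp8 form in mouse 88. On sp2 the disaccharide was brighter than on sp5 in 17 of 19 mice, by 1.30 log2 units (95% interval 0.67 to 2.14, adjusted p = 9.2e-05). The difference stayed past the threshold above the buffer (0.64, adjusted p = 0.020) and within both sets of arrays (1.71 and 0.93). Mouse 38, at 39293.5 RFU on sp2 and 55 RFU on sp5, weighs on the mean above the buffer, as the sp5 form was at or below the buffer in 16 mice. Without mouse 38 the difference as measured was 0.89 (adjusted p = 1.6e-04), and its value above the buffer was not computed. Against sp8 the difference was 1.52 log2 units (95% interval 0.66 to 2.48, adjusted p = 0.0012), which fell to 0.67 with an interval of -0.09 to 1.61 above the buffer (adjusted p = 0.22).

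The 2 shortest spacers, which differ by a single methylene group, were close in most mice. The sp2 form exceeded the sp3 form in 14 of 19 mice by 0.63 log2 units (95% interval -0.02 to 1.51, adjusted p = 0.092), and by 0.59 above the buffer (adjusted p = 0.028). This difference rests largely on mouse 38, with 39293.5 RFU on sp2 and 123.5 RFU on sp3, and without it the value was 0.20 (adjusted p = 0.17). Without mouse 37, 44 or 82 it was 0.71, 0.72 and 0.70 and past the threshold (adjusted p = 0.036, 0.028 and 0.044). Between sp3 and the longer spacers the differences were 0.67 (sp5, adjusted p = 0.0014) and 0.89 log2 units (sp8, adjusted p = 0.0033). Both were under 0.1 above the buffer, with intervals of -0.07 to 0.19 and -0.22 to 0.38. In each pair both forms were at or below the buffer, and so made equal, in 10 of 19 mice. The longest spacers, sp5 and sp8, differed by 0.22 log2 units (95% interval -0.31 to 0.73, adjusted p = 0.42). Without mouse 88, the only one above 413 RFU on sp8, that difference was 0.39 and past the threshold (adjusted p = 0.036).

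**Figure D2:**
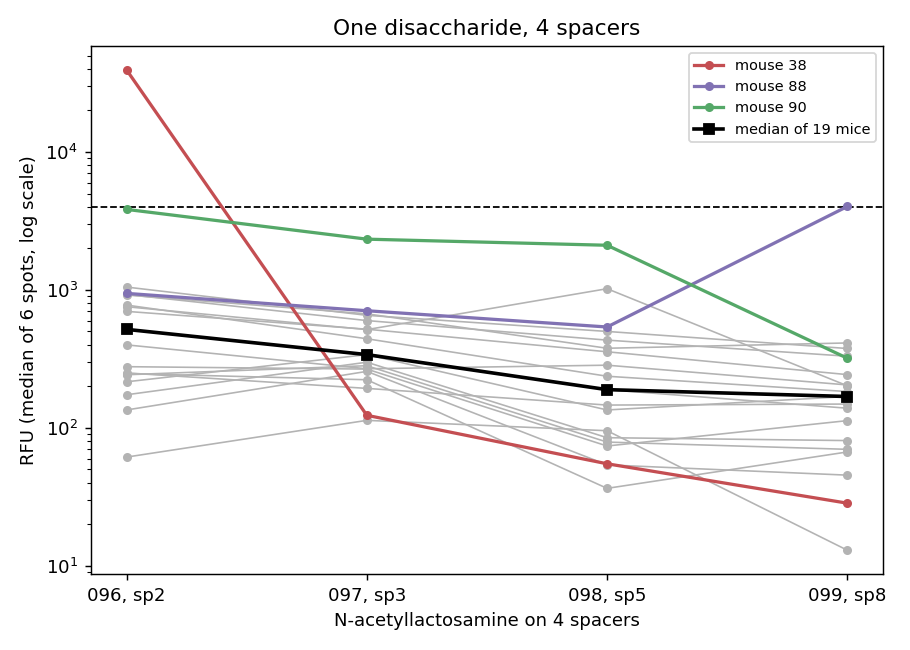
RFU of N-acetyllactosamine on 4 spacers in each of 19 mice (grey lines, log scale), with mice 38, 88 and 90 in colour, the median over mice in black and the 4000 RFU threshold dashed. The median falls from 518 RFU on sp2 to 169 RFU on sp8, mouse 38 is high on sp2 alone and mouse 88 highest on sp8.

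Chain length had no single direction, and the linkage of the added unit went with the sign. Adding LN through a β1-6 bond (387 against 096) gave a higher signal in 16 of 19 mice, by 0.78 log2 units (95% interval 0.34 to 1.23, adjusted p = 0.0026). Adding it through a β1-3 bond (384 against 096) gave a lower signal in 16 mice and a higher one in 2, by -1.10 log2 units (95% interval -2.04 to -0.32, adjusted p = 0.0022). Above the buffer these values were 0.63 (adjusted p = 0.0037) and -0.73 (adjusted p = 0.0034). Both pairs passed the threshold in the set of arrays with the lower ratio and missed it in the other, where the means were 0.97 and -1.16. Without mouse 38 the 1st was 0.83 and the 2nd -0.68, both still past the threshold (adjusted p = 0.0022 and 0.0040).

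The isomers 387 and 384 differ only in that bond, and 387 was brighter in all 19 mice. The i tetrasaccharide 384 ranged from 69 to 707 RFU with a median of 337.5 RFU and reached 4000 RFU in no mouse. The β1-6 isomer 387 ranged from 169 to 34333 RFU with a median of 898.5 RFU. The mean difference was 1.87 log2 units (3.66-fold, 95% interval 1.02 to 2.81, adjusted p = 4.0e-05). It was 1.36 above the buffer (2.58-fold, adjusted p = 9.8e-04), 2.14 and 1.64 within the sets of arrays, and 1.51 without mouse 38. Of the 22 pairs in the family, this one and those of 125 with 096, of 096 with 098 and of 498 with 097 passed the threshold under every alternative run on all mice, on either set of arrays and with the sign test.

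The hexasaccharide 498, with 3 LN units in β1-3 bonds, was lower than the single unit on the same spacer (097) in 16 of 19 mice. It ranged from 47.5 to 734.5 RFU with a median of 188.5 RFU, and the difference was -0.96 log2 units (95% interval -1.34 to -0.59, adjusted p = 1.2e-04). Above the buffer only -0.18 remained (95% interval -0.38 to -0.02, adjusted p = 0.037), since 498 was at or below the buffer in 18 mice. LNnT (383), on a spacer that no other chain of the family has, ranged from 52 to 571 RFU with a median of 339 RFU and was at or below the buffer in 18 mice. No linear chain in β1-3 bonds was positive in any mouse.

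**Figure D3:**
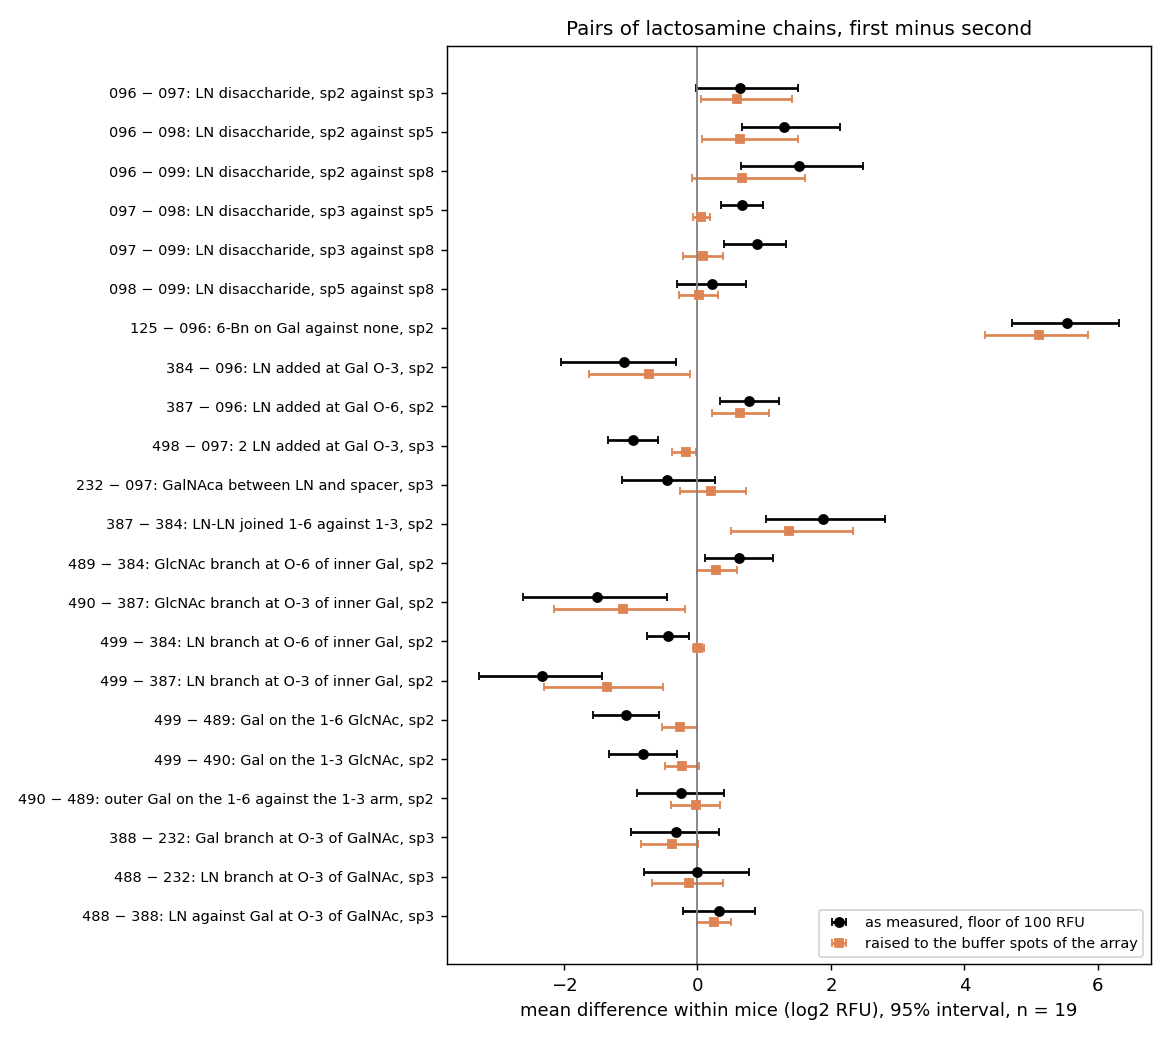
Mean within-mouse difference in log2 RFU for the 22 pairs of the family, first compound minus second, with 95% intervals from the exact sign-flip test (n = 19 mice), as measured (black circles) and with values raised to the buffer spots of their array (orange squares). Compound 125 exceeds 096 by 5.54 log2 units and 387 exceeds 384 by 1.87. Most differences between branched compounds shrink towards 0 above the buffer, where values that both lie below it are made equal.

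Branching at the inner galactose went with lower signals than the β1-6 chain. The I antigen 499 ranged only from 85 to 332 RFU, with a median of 196.5 RFU ± 51.5 (MAD), and was at or below the buffer in 16 mice. It was below 387 in 18 of 19 mice, by -2.32 log2 units (95% interval -3.27 to -1.43, adjusted p = 8.3e-05), and by -1.35 above the buffer (adjusted p = 9.8e-04). A bare GlcNAc at the 3-position also went with a lower signal: 490 was below 387 in 14 mice, by -1.51 log2 units (95% interval -2.61 to -0.45, adjusted p = 0.010), and by -1.12 above the buffer (adjusted p = 0.039). The value was -2.34 in females and -0.09 in males, where 490 was the brighter in 3 of 7, and these did not pass the threshold for a difference between the sexes (exact permutation test, p = 0.028, adjusted p = 0.18 over the 52 pairs).

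Relative to the β1-3 chain 384, the branches gave small differences. With GlcNAc at the 6-position (489) the signal was 0.62 log2 units higher (95% interval 0.11 to 1.13, adjusted p = 0.030), in 11 mice against 6. Leaving out any one of mice 37, 42, 48, 56, 87 or 90 took this above the threshold (adjusted p up to 0.060). With LN at the 6-position (499) it was -0.45 log2 units (95% interval -0.76 to -0.13, adjusted p = 0.015). Neither passed the threshold above the buffer, where the differences were 0.27 (95% interval -0.01 to 0.59) and 0.01 (95% interval -0.07 to 0.10). Both compounds of the pair were at or below the buffer, and so made equal, in 11 and 15 of the 19 mice. These values cannot show that a difference is absent.

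Among the branched compounds, the I antigen was the dimmest. Compound 489 ranged from 55.5 to 1707 RFU with a median of 420 RFU, and 490 from 52 to 2075 RFU with a median of 260 RFU. The complete structure 499 was below 489 by -1.07 log2 units (adjusted p = 0.0012) and below 490 by -0.82 (adjusted p = 0.0022), and above the buffer by -0.26 and -0.23 (adjusted p = 0.078 and 0.15). The isomers 490 and 489, with the arms exchanged, differed by -0.25 log2 units (95% interval -0.90 to 0.40, adjusted p = 0.49), each being the brighter in 9 mice.

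On α-GalNAc, the reducing sugar of mucin-type cores, LN gave low signals in whichever form it was printed. Compound 232 had a median of 205 RFU and was at or below the buffer in 14 mice, 388 had 263.5 RFU and 18 mice, and 488 had 263.5 RFU and 14 mice. None of the 3 pairs among them passed the threshold: 388 minus 232 was -0.33 log2 units (95% interval -0.998 to 0.32), 488 minus 232 -0.01 (95% interval -0.80 to 0.77) and 488 minus 388 0.32 (95% interval -0.22 to 0.86). The last had opposite signs in the 2 sets of arrays, 1.04 in the set with the higher ratio and -0.33, past the threshold, in the other (adjusted p = 0.043). Compared with LN directly on sp3 (097), LN on GalNAc (232) differed by -0.46 log2 units (95% interval -1.14 to 0.26, adjusted p = 0.27). Without mouse 65, in which 232 stood at 7057 RFU, the value was -0.69 and past the threshold (adjusted p = 0.027).

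Mouse 38, a female, bound LN on sp2 strongly, and its signals on related compounds are given by the position that is substituted on the LN galactose. In this serum 096 stood at 39293.5 RFU, with single spots from 13066 to 54342 RFU, and 387 at 34333 RFU, with spots from 20594 to 55010 RFU. The highest of the other 18 mice, mouse 90, had 3835 and 5828 RFU. The same serum gave 123.5 RFU on the sp3 form (097), 55 RFU on sp5 (098), 28.5 RFU on sp8 (099) and 69 RFU on the β1-3 chain 384, where the buffer spots of its array had 112.5 RFU. On this array 43.4% of all spots and 53.3% of the spots of the family were flagged as not found.

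Of the compounds of the array, 28 have a deposited structure whose text ends in Galβ1-4GlcNAcβ-sp2. A compound that the paper draws on several lines, with GlcNAc at the 3- and 4-positions of this galactose, is not in this list. This list and the compounds named from it were chosen after their values were seen and come without a test. Mouse 38 reached 4000 RFU on 44 of the 419 compounds of the array. In this serum 8 of 9 compounds substituted at the 6-position of the LN galactose reached 4000 RFU, with a median of 30294 RFU over the 9. They include 387, 125, the GlcNAc-capped chain 253 (30294 RFU), 6-O-sulfated LN 162 (39275 RFU) and 380, in which type 1 LN is joined through an α-GlcNAc (32345.5 RFU). The exception was the 6-phosphate 191 (932.5 RFU). Mouse 38 exceeded every other mouse on 6 of the 9. On 125 it had 34851 RFU, below the median of the other mice (38149.8 RFU), and on 386 it had 19716 RFU, below mouse 65 (46931.5 RFU). Of 8 compounds substituted at the 3-position 1 reached it, fucosylated compound 480 at 5312.5 RFU, where mouse 88 had 18063 RFU, and the median was 186.5 RFU. None of 6 substituted at both the 3- and 6-positions did, 489, 490 and 499 among them, and their highest value was 612 RFU. At the 4-position a sulfate (158) left 43346.5 RFU, whereas an α-galactose (225, the P1 antigen) had 90.5 RFU and compound 251 had 110.5 RFU. With sulfates at both the 4- and 6-positions (183) the signal was 37204 RFU.

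Across the whole array, 10 compounds reached 4000 RFU in mouse 38 at more than 2 times the level of every other mouse. Of these, 8 end in Galβ1-4GlcNAcβ-sp2. The other 2 were 159, the 4-O-sulfated disaccharide on sp3 (17784.5 RFU), and 804, a dimer of LN on an amine with 2 ethyl arms (5685 RFU), which the selection rule does not take in. Both were named after their values were seen.

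**Figure D4:**
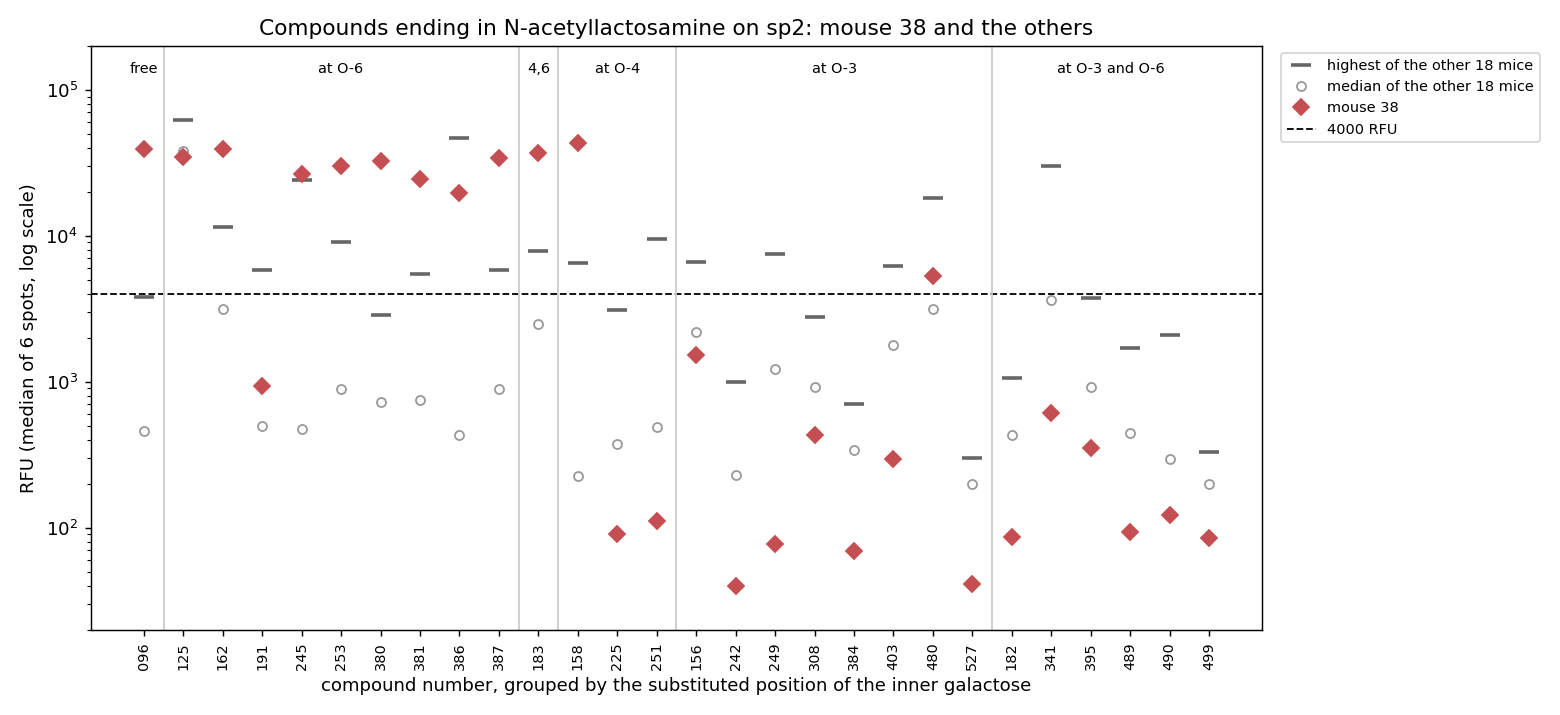
RFU on a log scale of 28 compounds whose deposited structure is written with the ending Galβ1-4GlcNAcβ-sp2, grouped by the substituted position of that galactose, in mouse 38 (red diamonds), beside the median (open circles) and the highest value (bars) of the other 18 mice, with 4000 RFU dashed. Mouse 38 is high on the free disaccharide and on 8 of 9 compounds substituted at the 6-position, and reaches 4000 RFU on 1 of 8 at the 3-position and on 0 of 6 at both positions. Over the whole array it reaches 4000 RFU on 44 of 419 compounds.

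The other individual reactions had other patterns. Mouse 90 had the second highest values on 096 (3835 RFU) and 387 (5828 RFU) and the highest on 097 (2334 RFU) and 098 (2108 RFU), but 320 RFU on 099 and 362 RFU on 384. On none of the 4 spacers did it reach 4000 RFU, which mouse 38 reached on sp2. Mouse 88 reached 4027.5 RFU on 099, with all 6 spots between 2568 and 5757 RFU, and had 539 to 944.5 RFU on the other 3 spacers. Mouse 65 reached 7057 RFU on 232, with 5 of its 6 spots from 5970 to 7859 RFU and the 6th at 346 RFU, and had 545 RFU on 388 and 337.5 RFU on 488, which extend 232 at the GalNAc.

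Of 30 pairs with relatives outside the family 20 passed the threshold, 17 with the relative brighter and 3 with the LN chain brighter. Among them are 23 pairs in which the LN disaccharide carried an added group (13 pairs) or an outer galactose was removed (10 pairs), and of these 17 passed, 16 with the relative brighter. Above the buffer 16 of the 30 pairs remained, 15 of them among these 23, all in the same direction as before and all with the relative brighter. Several pairs share 096 or 097, so they are not independent of one another. How often any compound of the array is brighter than these chains was not counted beside the pairs. In the median mouse 096 ranked above 36.6% of the other compounds, 097 above 37.4%, 384 above 23.4%, 388 above 11.7% and 099 above 6.82%. Most compounds of the array thus outranked these chains, whereas 387 ranked above 57.9%.

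The forms without the outer galactose, which expose GlcNAc, passed the threshold as the brighter compound in 9 of 10 pairs. The GlcNAc monosaccharide exceeded LN by 1.18 log2 units on sp2 (011 against 096, -1.18, 95% interval -1.90 to -0.51), by 1.87 on sp3 (010 against 097, -1.87, 95% interval -2.64 to -1.15) and by 3.51 on sp8 (013 against 099, -3.51, 95% interval -4.68 to -2.36). Above the buffer these values were -0.76, -1.46 and -2.54 (adjusted p = 0.041, 5.3e-04 and 4.0e-04), since LN on sp8 was at or below the buffer in 18 mice. On sp8 GlcNAc (013) had a median of 2947 RFU and reached 4000 RFU in 9 mice, and was brighter than LN in all 19. Among the longer chains, the LN minus GlcNAc difference was -1.997 for the β1-3 chain (384 against 249, brighter as LN in 0 of 19 mice, adjusted p = 7.2e-05), and -3.14 for the core 2 structure (388 against 254, 0 of 19 mice, adjusted p = 4.0e-05). Above the buffer they were -1.27 and -2.14 (2.42-fold and 4.42-fold, against 3.99-fold and 8.81-fold as measured).

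The β1-6 chain was the exception. Compound 387 and its trimmed form 253 differed by -0.05 log2 units (95% interval -0.75 to 0.63, adjusted p = 0.92), with medians of 898.5 and 978.5 RFU. For the branched compounds the trimmed form 395, with GlcNAc on both arms and a median of 768 RFU, exceeded 490 in 18 mice (490 minus 395, -1.15, adjusted p = 4.4e-05) and 489 in 14 (489 minus 395, -0.90, adjusted p = 0.0094). The pair of 488 with core 4 (255), which loses both outer galactoses, was -1.72 log2 units (adjusted p = 0.016) and -1.10 above the buffer (adjusted p = 0.083).

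Turning the outer bond from β1-4 into the β1-3 of type 1 chains made a difference on 1 of 3 backbones. On the β1-3 chain the type 1 form 403 had a median of 1651 RFU against 337.5 RFU for 384, and 384 minus 403 was -2.26 log2 units (95% interval -2.99 to -1.53, adjusted p = 6.0e-05), and -1.61 above the buffer (adjusted p = 4.0e-04). On the β1-6 chain 387 minus 381 was -0.19 (95% interval -0.94 to 0.55, adjusted p = 0.68). For the disaccharide, 096 minus 086 was 0.21 (95% interval -0.60 to 1.18, adjusted p = 0.90), with 086 the brighter in 11 mice against 7, and without mouse 38 it turned to -0.23. The β and α anomers of the inner GlcNAc in the β1-6 series, 387 and 386, differed by 0.42 (95% interval -0.36 to 1.17, adjusted p = 0.36). Without mouse 65, where 386 stood at 46931.5 RFU, this was 0.69 and past the threshold (adjusted p = 0.037).

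The largest differences among the 30 pairs were those with fucosylated LN. With 340 RFU as its own median, 097 was below Lewis X (234, fucose on GlcNAc, median 9476.5 RFU) by -4.64 log2 units (25.0-fold, 95% interval -5.38 to -3.91) and below type 2 blood group H (216, fucose on galactose, median 8718.5 RFU) by -4.50 (22.6-fold, 95% interval -5.17 to -3.82), in 19 of 19 mice each (adjusted p = 4.0e-05). These folds depend on the background, as 097 was at or below the buffer in 11 mice, and with values raised to the buffer they were 17.98 and 16.3. The differences of 096 from its sulfated forms varied with the position: -2.63 with sulfate at the 6-position of galactose (162, adjusted p = 4.4e-05), -2.72 at the 6-position of GlcNAc (203, adjusted p = 1.1e-04), -1.82 at the 3-position (156, adjusted p = 0.0020) and 0.53 at the 4-position (158, 95% interval -0.04 to 1.09, adjusted p = 0.093). The last passed the threshold without mouse 87 (0.71, adjusted p = 0.011) and without 1 of the males (0.65, adjusted p = 0.040), but was -0.01 above the buffer. With phosphate in place of sulfate at the same 6-positions the differences were -0.15 (190, on GlcNAc, 95% interval -1.14 to 0.99) and 0.13 (191, on galactose, 95% interval -0.53 to 0.86). Without mouse 38 they were -0.63 and -0.16, neither past the threshold (adjusted p = 0.063 and 0.58).

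Sialic acid and galactose caps gave smaller differences. With α2-3-linked Neu5Ac (298) the LN chain 097 was lower by -1.64 log2 units (adjusted p = 0.0021). With the α2-6 form (300) the value was -0.76 (adjusted p = 0.043), which leaving out any one of 9 mice took above the threshold (adjusted p up to 0.084). Compound 300 was the brighter in 10 mice and 097 in 9. The mean was -1.29 in females and 0.17 in males, which did not pass as a difference between the sexes (exact permutation test, adjusted p = 0.18). The α1-3-galactosylated form, the xenoantigen that mice make themselves (222), was below 097 by 0.66 log2 units (adjusted p = 0.0092), but by 0.03 above the buffer (95% interval -0.17 to 0.25). A β1-4-galactose (264) made 0.01 (95% interval -0.42 to 0.44), and the P1 cap on 096 (225) 0.59 (95% interval -0.54 to 1.81), or 0.15 without mouse 38.

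A sugar of LN itself was exchanged in 3 pairs. LN exceeded LacdiNAc, in which the outer galactose is GalNAc, by 0.92 log2 units on sp2 (adjusted p = 0.044) and by 0.66 on sp3 (adjusted p = 0.030), and neither held above the buffer (adjusted p = 0.093 and 0.81). The first was lost on leaving out any one of 15 of the 19 mice (adjusted p up to 0.087) and the second on leaving out any one of 4 (adjusted p up to 0.059), and without mouse 38 the first was 0.49. With glucose in place of GlcNAc, as in lactose (092), the difference was -0.29 (95% interval -1.001 to 0.68, adjusted p = 0.81), although lactose was the brighter in 17 of 19 mice. Without mouse 38 it was -0.74 and past the threshold (adjusted p = 0.0022).

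**Figure D5:**
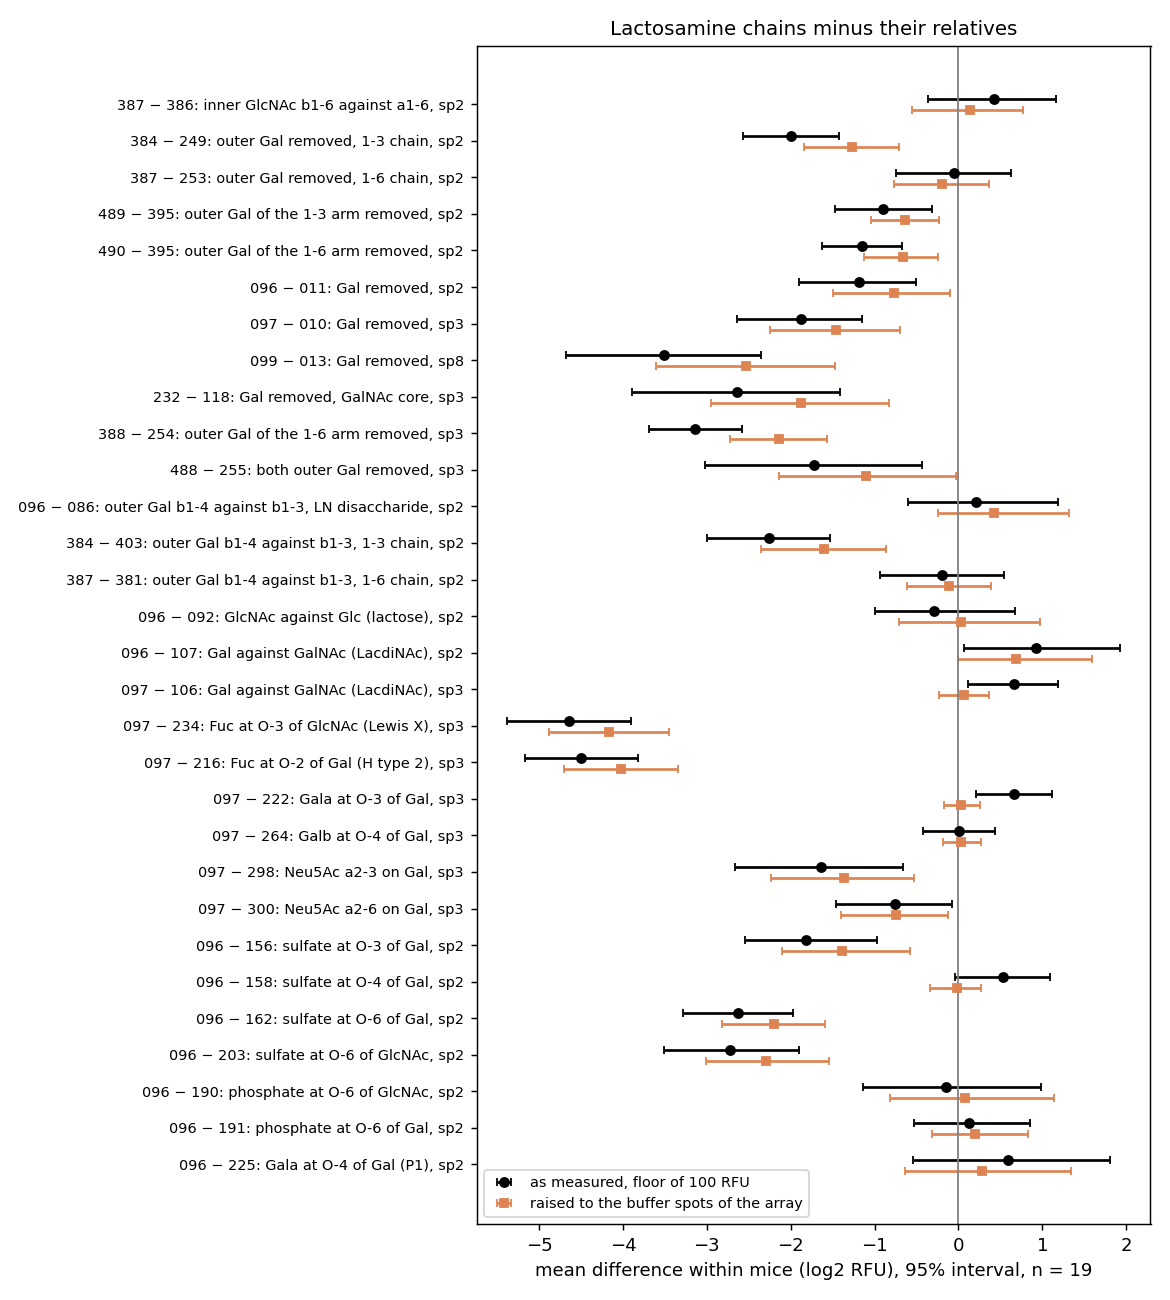
Mean within-mouse difference in log2 RFU for the 30 pairs of a type 2 lactosamine chain with a relative outside the family, chain minus relative, with 95% intervals from the exact sign-flip test (n = 19 mice), as measured (black circles) and raised to the buffer spots (orange squares). As measured, LN is 25.0-fold below Lewis X (234) and 22.6-fold below blood group H type 2 (216), and the trimmed forms are brighter in 9 of 10 pairs.

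Between the sexes, 1 of the 15 chains passed the threshold in limma fitted over all compounds, where 1.67% of the 419 did, 1.43% with the male signal higher. Female minus male differences were negative for 13 of the 15, with a median of -0.52 log2 units, beside -0.75 over all compounds and -1.08 for the buffer spots. The chain was 490, with 52 to 418 RFU and a median of 189.8 RFU in 12 females and 374.5 to 2075 RFU and a median of 701 RFU in 7 males (difference -2.27 log2 units, SE 0.44, limma adjusted p = 0.0072). The groups overlapped through mouse 65, a female at 418 RFU, and mouse 56, a male at 374.5 RFU. In the set of arrays with the higher ratio the females had 52 to 212 RFU and the 2 males 374.5 and 2075 RFU. In the other set the females had 181 to 418 RFU and the males 475.5 to 1968.5 RFU. How many of all compounds part by sex in this way was not counted, and 490 was looked at because it had passed. With the set as a term the difference was -2.08 (limma adjusted p = 0.0035). It did not pass with values raised to the buffer (-1.84, limma adjusted p = 0.092) or after quantile normalization (-1.48, limma adjusted p = 0.19). The part that the higher signal of male arrays has in it was not tested.

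The doubly trimmed relative 395, with GlcNAc on both arms, differed between the sexes as well, with medians of 381.5 RFU in females and 2568 RFU in males (difference -2.43 log2 units, SE 0.63, limma adjusted p = 0.046). Lewis X (234, -2.11) and the type 1 chain 403 (-2.42) passed at the same limma adjusted p. With the set of arrays as a term, 490 was the only compound with a higher male signal that passed, so 395 did not. With values raised to the buffer, or after quantile normalization, no compound with a higher male signal passed. The 2 other branched chains did not pass the threshold. The arm isomer 489 had medians of 397.8 RFU in females and 469 RFU in males (-0.88, 95% interval -2.09 to 0.34), and 499, which adds a galactose to 490, had 176.5 and 262 RFU (-0.52, 95% interval -1.11 to 0.07). The difference within mice between 499 and 490 was -0.17 log2 units in females and -1.92 in males, and these differed between the sexes (exact permutation test of the sex labels over 50388 assignments, two-sided, adjusted p = 0.0031 over the 52 pairs). Both 499 and 490 were at or below the buffer in 12 of 19 mice, and this comparison of the sexes is given only as measured. Between 490 and 395 the difference within mice was -1.09 in females and -1.25 in males (exact permutation test, adjusted p = 0.89). For the benzylated 125 the sexes differed by -0.72 log2 units (95% interval -1.80 to 0.36, limma adjusted p = 0.39).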

How the data were processed

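The authors scanned each array at 633 nm and deposited, per spot, the mean intensity of its pixels with the local background and the percent of saturated pixels, as ScanArray Express 4.00 gave them. The authors' table of the whole series gives structures, spacers and, per compound, an intensity labelled as a median over animals and a number of animals. From the deposited intensity, with no scaling between arrays and the local background left in, the median of 6 spots was taken per mouse. For tests, values were set to at least 100 RFU and taken to log2. Pairs were compared within mice by flipping the sign of the 19 differences in all 524288 ways (two-sided), with intervals from inverting the test, and Benjamini-Hochberg adjustment over 52 pairs. Sexes were compared with limma 3.58.1 (R 4.3.3, trended prior variance) over 419 compounds. An adjusted p under 0.05 was called.

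Members, relatives, pairs and lists were chosen with earlier results of these data known. Every member, the compounds of the pairs, trehalose-ethanolamine, 804 and 2 peptides were to be named. Compounds 804 and 159, and the others ending in LN on sp2, were named after their values were seen. Alternatives were the mean of the spots, background subtraction, spots flagged as not found left out (where at least 3 remain), thresholds of 2000 and 8000 RFU, 4000 RFU above the buffer, the buffer as a floor, log2(RFU + 500), quantile normalization, each set of arrays, the set as a term, the sign test, both or neither of the identical arrays, and, added after seeing the data, leaving out each mouse. The scripts were tested on simulated data. Tests ran in scipy 1.17.1 and numpy 2.4.6 under Python 3.11.15, tables in pandas 2.3.3 and plots in matplotlib 3.10.9. Of the 419 compounds, 1 has no row of structure in the table and was kept in the limma fit only by its number.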

Additional observations from a re-analysis of the deposited data

Results flagged for a closer look

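One difference between compounds was itself different between the sexes. Compound 499 minus 490 was -0.17 log2 units in 12 females and -1.92 in 7 males, 1.75 apart, with 490 the brighter in 7 of 7 males (exact permutation test, adjusted p = 0.0031). Since 490 was already known to differ between the sexes in these data, this is no independent evidence of it. Both compounds were at or below the buffer in 12 of the 19 mice.

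In 14 of 67 sets of 7 male values, 1 mouse stood apart, with a gap to its neighbour, as a share of the range, above the 95% critical value of Dixon's test, which chance passes in about 1 of 20 sets. Many of these sets share a compound. Mouse 56 was low on 383 (gap 0.6675 of the range) and 388 (0.6338) and high on 387 minus 096 (0.6266) and 387 minus 384 (0.623), with 2069 RFU on 387. Mouse 82 was apart on 096 minus 097 (0.701) and 125 minus 096 (0.6375). One male was low on 387 minus 253 (0.66) and on LN minus LacdiNAc on sp3 (0.6851), mouse 48 on 096 minus 011 (0.7727) and 097 minus 010 (0.6711), another on 097 minus 300 (0.5727), a further one on 096 minus 158 (0.5683) and 096 minus 190 (0.5887), and mouse 53 on 096 minus 191 (0.6121).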

How the results depend on the processing

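The 5 chains that reached 4000 RFU in a mouse became 8 at 2000 RFU and 3 at 8000 RFU. They became 4 with the mean of the spots, with the local background subtracted and at 4000 RFU above the buffer median. The share of all compounds under these settings was not counted. The 15 pairs of the family past the threshold became 9 with values raised to the buffer median and 7 on the 9 arrays of the set with the higher ratio, and the 20 pairs with relatives became 10 on those arrays, where fewer mice were tested. The 1 chain differing between the sexes became 0 with values raised to the buffer median and 0 after quantile normalization, and the cause was not tested. A pair of differences changed sign: 499 minus 384 was 0.012 with values raised to the buffer and 0.11 on the arrays with the higher ratio, and 488 minus 388 was -0.33 on those with the lower ratio. In 77 further cases the sign changed with no call under either setting. Leaving out each mouse in turn gave 4 to 5 chains at 4000 RFU, 1 to 1 with such a median, 14 to 16 pairs in the family, 17 to 20 with relatives and 1 to 1 chain between the sexes. The chains lost were 387's companions with a single positive mouse: 096, 099 and 232. No paired analysis of the sexes was possible, as sex differs between animals and the labels pair no female with a male. Signals at or below the buffer spots limit every comparison among 12 of the 15 chains.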

Other observations

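The column that the authors' table labels as a median over animals lay within 2% of the mean over 20 arrays for 259 of 418 compounds, and within 2% of the median over 20 arrays for 14. For 096 the table gives 2604 RFU, where the mean over the arrays was 2593 RFU and the median 459 RFU. For 387 it gives 2719 RFU, where the mean was 2798 RFU and the median 897 RFU.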
